A study of Mus musculus with 8 samples.

Results

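The antioxidant and glutathione enzyme genes of sorted mouse cochlear hair cells were compared between wild type and Ndp knockout. Members were taken by name and biotype from the authors' table: the glutathione peroxidases, peroxiredoxins, superoxide dismutases, catalase, glutathione S-transferases, thioredoxin genes, enzymes of glutathione synthesis and reduction, Nqo1 and the heme oxygenases. In all, 61 of the 25343 genes were members, and 60 of them passed the minimum of 10 normalized counts in at least 4 of the 8 libraries. Gsta1, a glutathione S-transferase gene, was below it, with 12.7, 2.74, 0 and 0 normalized counts in wild type and 0, 4.90, 6.32 and 0 in the knockout. Membership rests on names and biotype and no measured value, while the minimum for testing uses the counts.

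Each of the 8 libraries, 4 wild type and 4 Ndp KO, came from a tube of 12 to 20 cochlear sensory epithelia. The mice, of mixed C57BL/6 and 129 strain, were 4 to 6 days old. Ndp encodes norrin, a secreted ligand of the frizzled receptor Fzd4. Cells were sorted in both genotypes by an Atoh1-GFP reporter, so all mice carried that reporter, and RNA was made into full-length cDNA. The labels say neither which part of Ndp is lacking nor how the pools relate to litters, so p-values measure the spread between these libraries only, which may be technical. A normalized count is a read count divided by the size factor of its library, as deposited. Libraries held 35077950 to 48329827 reads recovered from these values. Wild-type replicates 1 and 4 had the highest shares of counts from mitochondrially encoded genes, 2.31% and 3.47%, against 1.15% to 1.83% in the other libraries. The comparison is also given without these replicates.

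Cells make superoxide and hydrogen peroxide as by-products of respiration and of oxidases. Superoxide dismutases turn superoxide into hydrogen peroxide, which catalase, glutathione peroxidases and peroxiredoxins break down to water. Glutathione reductase and the thioredoxin reductases restore the reduced thiols with NADPH, and glutathione S-transferases couple glutathione to electrophiles. The transcription factor Nrf2, encoded by Nfe2l2 and held back by Keap1, raises many of these genes through antioxidant response elements. Hair cells are known to be damaged by oxidants after noise and aminoglycoside antibiotics.

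Markers of other cells were checked in the same libraries. The 10 hair cell markers summed to 377738 to 431232 normalized counts in wild type and 380845 to 441099 in the knockout, with all 10 detected. The 10 supporting cell markers were abundant too, at 246030 to 464334 and 279093 to 409459. The levels below therefore cannot be assigned to hair cells alone, and fewer cells of a type and less RNA per cell cannot be told apart. How far other cells were present was not tested. The 12 macrophage markers summed to 2098 to 5138 in wild type and 3819 to 6137 in the knockout. Of these 12, 11 had a positive log2 difference and 5 an unadjusted p under 0.05, all 5 higher in the knockout. Of the 10 mesenchyme and fibrocyte markers 7 were positive, 3 with an unadjusted p under 0.05 in that direction, and of 6 tested endothelial markers 5 were positive, 1 of them under 0.05. Of the 10 supporting cell markers 6 were negative, 3 with an unadjusted p under 0.05 in that direction. Between genotypes 2 of these 10 (20%) did not overlap, against 3.04% of all tested genes. Hair cell markers were positive for 6 and negative for 4, with 1 under 0.05, higher in the knockout. Among the 8 glia and neuron markers 5 were positive and 3 negative, with 1 under 0.05 in each direction. Over all tested genes 5.57% had an unadjusted p under 0.05. Limma called 0 markers in these lists, and DESeq2 called 1, of mesenchyme and fibrocytes. Mesenchyme and fibrocyte markers (10 genes) summed to 16923 to 23731 and 19463 to 32832, glia and neuron markers (8) to 24224 to 33044 and 25984 to 32269, and endothelial markers (7 of 9 in the table) to 92.2 to 197 and 189 to 327. Red blood cell markers, relevant because erythrocytes are rich in Prdx2 and catalase, reached at most 84.0 normalized counts. Of the red blood cell list 5 of 7 genes were in the table, and no marker in the table was at 0 in every library.

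Antioxidant response elements were searched for by their core letters, TGACNNNGC, in RefSeq promoter windows of build GRCm38.p6 that run from 250 bases before to 50 after each start site. The table held windows for 52 of the 61 members. The core occurred on either strand in 10 of their 71 windows (14.1%), against 12.4% of all 32851 windows. By gene, 10 of the 52 members (19.2%) had a match, against 14.0% of all 27025 genes. One gene from each of the 6 roles that held a match is shown, to let the element be compared between enzyme families. The core is in capitals and is printed in the direction in which it reads TGACNNNGC.
Gclm, chr3:122245413-122245441, minus strand: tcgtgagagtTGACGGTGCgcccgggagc
Prdx1, chr4:116685456-116685484, minus strand: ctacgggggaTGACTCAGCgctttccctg
Txnrd1, chr10:82859104-82859132, minus strand: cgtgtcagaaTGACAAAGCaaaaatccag
Sod1, chr16:90220696-90220724, minus strand: ggcctgagtcTGACCACGCccaccttggc
Gstm5, chr3:107895802-107895830, plus strand: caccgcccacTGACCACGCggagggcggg
Mgst1, chr6:138140461-138140489, minus strand: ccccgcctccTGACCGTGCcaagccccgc
Of the 10 matches, that of Prdx1 also held TGANTCA, the letters of an AP-1 site. Sod1 and Gstm5 had the same 9 core letters, as did Txnrd1 and Gstm7. The other matches lay in Gsta3, Gstm7, Txndc5 and Txndc11. A match is a description of letters and not of binding. The median log2 difference between genotypes was 0.01 for the 10 members with a match. It was 0.09 for the 41 tested members with a window and no match, Nqo1 among them. Gclc, Gsr and Hmox1 were among the 9 members without a window. The split therefore does not separate Nrf2 targets from other members.

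The enzymes were expressed at high levels in both genotypes. Per kilobase of the principal transcript, the median member that passed the minimum had 1111 normalized counts over the 8 libraries, against 191 for the 18195 tested genes with a length, and 47 of 60 members lay above the latter. The highest were Prdx2 (18730.3 normalized counts per kb), Txndc15 (18170.2), Mgst3 (15689), Gpx4 (14009), Prdx1 (9549.99) and Gstp1 (9175). Between neighbours in this order the ranges of the 8 libraries overlapped, as the plot of levels shows. At the low end Sod3, the extracellular dismutase, had 4.88 and Gsta3 10.5 normalized counts per kb.

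**Figure D1:**
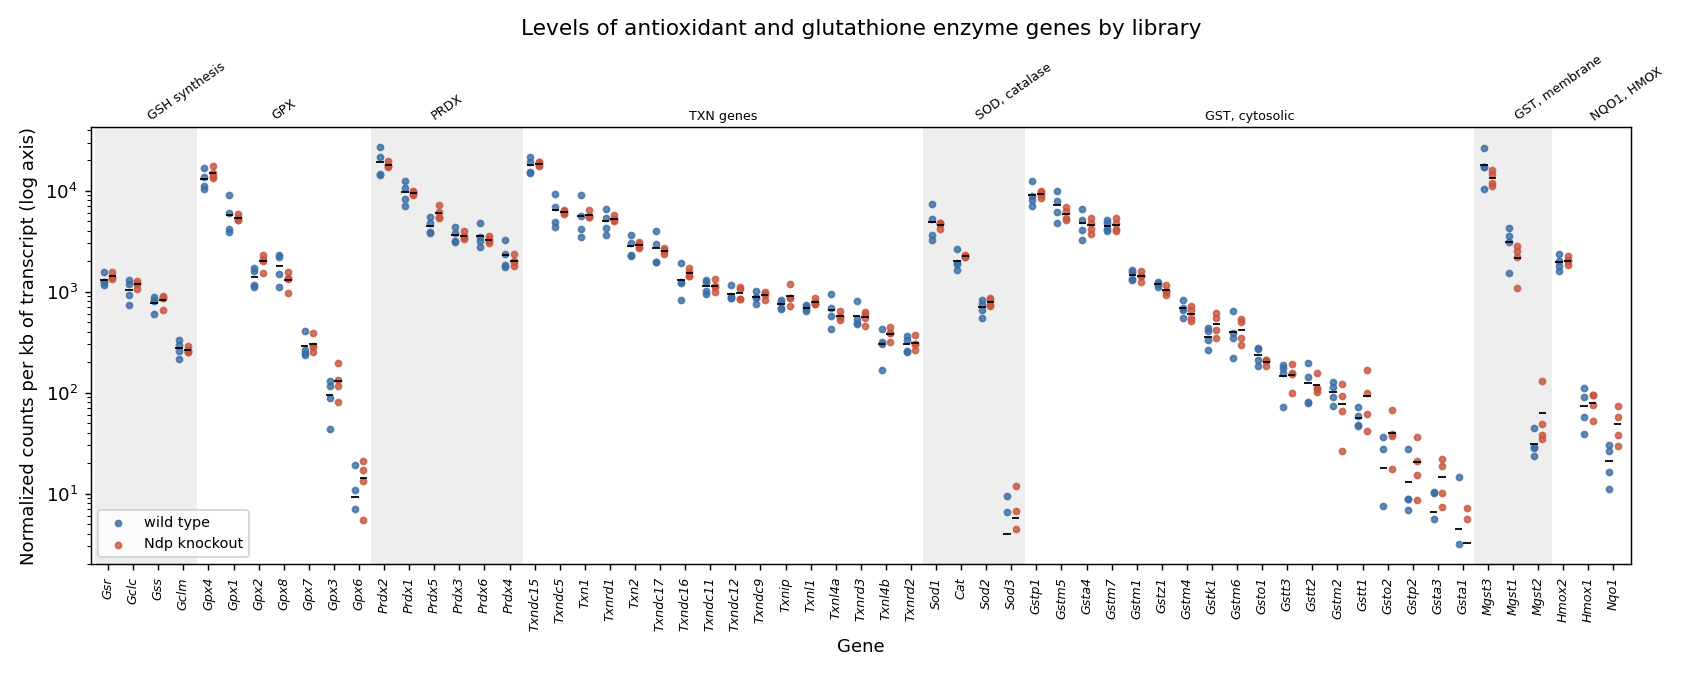
Normalized counts per kb of principal transcript (log axis) of all 61 members, grouped by role; each point is a library, blue wild type and red knockout, and black lines are group means. Libraries with 0 counts (in Gpx6, Sod3, Gsto2, Gsta3 and Gsta1) have no point. Prdx2, Txndc15, Mgst3 and Gpx4 are the 4 highest by mean, and the genotypes lie side by side for most genes.

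No member was called different between the genotypes. Limma on log2(normalized count + 1), adjusted by Benjamini-Hochberg over all 18203 tested genes, called 0 of 60 members at 0.05, where it called 0.00549% of all genes, and the adjusted p of members was 0.895 to 0.998. edgeR's quasi-likelihood test and DESeq2, run on reads recovered from the normalized counts, also called 0 members, where edgeR called 0 of all 18203 genes (828 had an unadjusted p under 0.05) and DESeq2 called 34 of 25078 (0.136%). At an unadjusted p under 0.05 there were 3 members (5.00%), all higher in the knockout, against 5.57% of all genes tested (3.1% higher and 2.47% lower in the knockout). They were Prdx5, Gpx2 and Nqo1. The same 3 were under 0.05 by edgeR, where 4.55% of all genes were, and by DESeq2, where 6.09% were. The share of members was near that of all genes. For 1 member (1.67%), Txnl1, the 4 knockout libraries all lay beyond the 4 wild-type libraries, against 3.04% of all genes (1.46% higher and 1.58% lower).

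In direction, the log2 difference (knockout minus wild type) was positive for 40 members and negative for 20, with a median of 0.07. Among all tested genes 52.5% were positive and the median was 0.02. The 95% interval of the fold change lay within 1.5 times in either direction for 30 members and within 2 times for 48. For the other 12, most of them with few counts, it reached past 2 times.

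**Figure D2:**
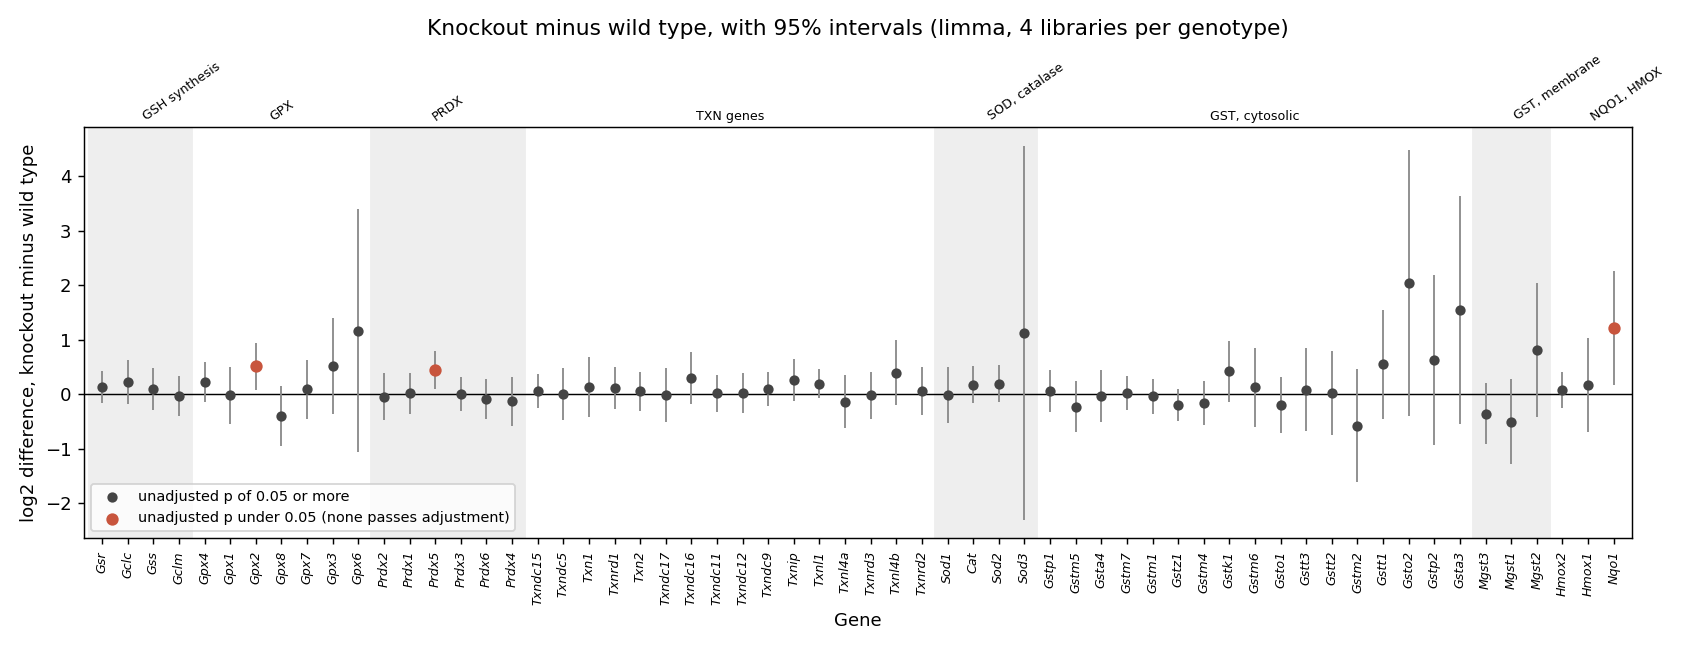
Log2 difference, knockout minus wild type, with 95% intervals from limma, for the 60 tested members by role; n = 4 libraries per genotype. The intervals of Gpx2, Prdx5 and Nqo1 (red) leave out 0 before adjustment, and the widest intervals belong to genes with few counts such as Sod3 and Gsto2.

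Glutathione is made in 2 steps. Gclc and Gclm encode the catalytic and the modifier subunit of the first enzyme, Gss the second, and Gsr the reductase that recycles oxidized glutathione. Gclc held 3202, 4449, 4096 and 2528 normalized counts in wild-type replicates 1 to 4 and 4205, 4343, 3658 and 4112 in knockout replicates 1 to 4. The knockout libraries lay inside the wild-type range, and the log2 difference was 0.22 ± 0.18 (SE; limma adjusted p = 0.94). Gsr held 3342, 4168, 3303 and 3074 in wild type against 4193, 3759, 3642 and 3538 in knockout libraries, a log2 difference of 0.13 ± 0.14 (SE). Wild-type replicate 2 and knockout replicate 1 were high and the genotypes overlapped. Gss averaged 1520.4 ± 243 in wild type against 1613 ± 212 in knockout libraries, and Gclm 1535 ± 282 against 1476 ± 92.5 (SD, n = 4 per genotype). They had log2 differences of 0.09 and -0.04.

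The glutathione peroxidases reduce hydrogen peroxide and lipid hydroperoxides. Gpx4, which protects membranes from lipid peroxides and from ferroptosis, was the highest of the 7 per kb. It held 13191, 10703, 9917 and 16079.6 normalized counts in wild type and 12827, 14425, 16968 and 13363 in the knockout, replicates 1 to 4 in order. Its genotypes overlapped, with a log2 difference of 0.22 ± 0.17 (SE; 95% interval -0.15 to 0.60). Gpx1, the ubiquitous cytosolic peroxidase, held 6443, 4216, 4444 and 9629 in wild type against 5797, 6320.3, 5432 and 5454 in knockout libraries. Wild-type replicate 4 stood highest and replicates 2 and 3 lowest, while the knockout libraries lay between, and the log2 difference was -0.02 ± 0.24 (SE).

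Gpx2, best known from the epithelium of the gut, had the lowest p of the family. Gpx2 (ENSMUSG00000042808, mm10, chromosome 12, 76792333 to 76795554, minus strand) held 1699.9, 1254, 1185 and 1849.8 normalized counts in wild type and 2462, 2154, 2260.1 and 1626 in the knockout. Knockout replicates 1 to 3 exceeded every wild-type library, and knockout replicate 4 lay below wild-type replicates 1 and 4. Wild type averaged 1497 ± 328 and the knockout 2125 ± 357 (SD, n = 4 each). Limma put the log2 difference at 0.51 ± 0.20 (SE), its p at 0.0241 before and 0.895 after adjustment. The unadjusted p rose above 0.05 without wild-type replicate 2 or 3 or without knockout replicate 1, 2 or 3. Its adjusted p in the authors' deposited table was 0.610.

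Gpx8, an endoplasmic reticulum member, had the opposite sign. Its normalized counts were 2405, 1569, 1169 and 2282 in wild type and 1431, 1393, 1008 and 1629.99 in the knockout, with overlap and a log2 difference of -0.41 ± 0.25 (SE; limma adjusted p = 0.927). Gpx7, also of the endoplasmic reticulum, and the secreted Gpx3 had 373 ± 101 and 151 ± 60.8 normalized counts in wild type, against 391 ± 73.4 and 209.6 ± 76.6 in knockout libraries (SD, n = 4 per genotype). Gpx6, known from olfactory tissue, was near the minimum at 12.4 ± 10.7 and 19.0 ± 8.83.

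Peroxiredoxins reduce peroxides through a reactive cysteine. Prdx2 and Prdx1, both cytosolic, were the most abundant of the 6 per kb. Prdx2 held 32016, 21915, 21629 and 40569.8 normalized counts in wild type and 25817, 29192, 26525 and 27101 in the knockout, and Prdx1 held 24440.1, 19121, 16081 and 28669.98 in wild type against 21245, 22580.1, 20683 and 22440.4 in knockout libraries. In both genes wild-type replicates 4 and 1 were the highest and replicates 2 and 3 the lowest of all 8 libraries, with the knockout libraries between them. The log2 differences were -0.05 ± 0.20 and 0.01 ± 0.17 (SE), with 95% intervals of -0.48 to 0.39 and -0.37 to 0.39.

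Prdx5, which acts in mitochondria, peroxisomes and the cytosol, had the lowest p of all members. Prdx5 (ENSMUSG00000024953, mm10, chromosome 19, 6906697 to 6910106, minus strand) held 5999, 4952, 4765 and 6962 normalized counts in wild type and 7778, 6949, 9099.8 and 6816 in the knockout. Wild-type replicate 4 lay above knockout replicates 2 and 4, and the other wild-type libraries lay below every knockout library. Wild type averaged 5669.5 ± 1019 and the knockout 7661 ± 1049.6 (SD, n = 4 each). The log2 difference was 0.44 ± 0.16 (SE), and limma gave a p of 0.0181 before and 0.895 after adjustment. The unadjusted p rose above 0.05 without knockout replicate 3. In the authors' deposited table its adjusted p was 0.557. By annotation 409 exon bases of Prdx5 are shared with Trmt112 on the opposite strand, and the library kit does not mark strand. Trmt112, a methyltransferase cofactor, averaged 2362 ± 911 normalized counts (SD, n = 4) in wild type against 2081 ± 240.05 in knockout libraries, and its log2 difference was -0.11. Exon bases shared with another gene, on either strand, were found for 15 of the 61 members, Prdx2, Txndc5, Gstm5, Gclm and Gss among them.

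The mitochondrial Prdx3, the endoplasmic reticulum Prdx4 and Prdx6, which also has phospholipase activity, differed by less than the spread between libraries. Prdx4, on the X chromosome, held 2321, 1806, 1721 and 3209 normalized counts in wild type and 1934, 2313, 1786 and 2006 in the knockout, a log2 difference of -0.13 ± 0.20 (SE). Again wild-type replicate 4 was the highest and the genotypes overlapped. Prdx3 and Prdx6 had log2 differences of -0.01 ± 0.14 and -0.09 ± 0.17 (SE).

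Thioredoxins carry electrons from the selenoenzymes thioredoxin reductases to peroxiredoxins and other proteins. In wild type and knockout, the cytosolic Txn1 averaged 5877 ± 2599.8 and 6035 ± 469, and the mitochondrial Txn2 5793 ± 1339 and 5886 ± 394 (SD, n = 4 each). Txnrd1, the cytosolic reductase, had 16558 ± 4312 and 17511 ± 1049.8, Txnrd2, the mitochondrial one, 573 ± 103 and 593 ± 82.5, and Txnrd3, a reductase studied in the testis, 1639 ± 436 and 1587 ± 204 (SD, n = 4 each). These 5 genes had log2 differences of -0.02 to 0.13. Txnrd1 ran against the peroxiredoxins within wild type, with 14249, 17806, 22004 and 12174 normalized counts: replicates 1 and 4 were the lowest and replicate 3 the highest of all 8 libraries.

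The other 11 genes whose names begin with Txn include several that are not antioxidant enzymes. Txnl4a and Txnl4b encode spliceosome proteins with a thioredoxin fold, and Txnip an arrestin-like protein that binds thioredoxin. Txndc15, an endoplasmic reticulum membrane protein linked to ciliary disease, was the highest of them, with 29640.2, 23631, 23060.1 and 32847 normalized counts in wild type and 29190.4, 27211, 29344 and 27044 in the knockout. Its genotypes overlapped, with a log2 difference of 0.06 ± 0.14 (SE). Txndc5, a disulfide isomerase, held 19761, 26595, 12358 and 13812 in wild type against 16997, 17837, 16521 and 18444 in knockout libraries. The wild-type libraries of Txndc5 spread widely around 4 knockout libraries that lay close together, and the log2 difference was 0.01 ± 0.22 (SE).

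Txnl1, a cytosolic thioredoxin-like protein bound to the proteasome, was the member whose genotypes did not overlap. It held 3183, 3160.2, 2925 and 2779.9 normalized counts in wild type and 3259, 3794, 3410.4 and 3296 in the knockout. The gap between the highest wild-type and the lowest knockout library was small, and the log2 difference was 0.19 ± 0.12 (SE; limma adjusted p = 0.927). An exon overlap of 117 bases joins Txnl1 to Wdr7 on the opposite strand, which averaged 4792 ± 2507 normalized counts (SD, n = 4) in wild type against 6621 ± 1091 in knockout libraries. Txnip held 1894, 1934, 2330.4 and 2196 in wild type against 2398, 2423, 1999 and 3311 in knockout libraries, with knockout replicate 4 the highest of all libraries and a log2 difference of 0.26 ± 0.17 (SE). Without this group of 11 genes, 0 of 49 members were called, 31 were positive and 18 negative, and the median was 0.08.

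Superoxide is removed by Sod1 in the cytosol, Sod2 in mitochondria and Sod3 outside cells, and catalase breaks down hydrogen peroxide in peroxisomes. Sod1 held 3322, 2076, 2358 and 4763 normalized counts in wild type and 2695, 2983, 3055 and 3066 in the knockout. Its wild-type libraries spanned a far wider range than the knockout libraries, which lay inside it, and the log2 difference was -0.01 ± 0.23 (SE). Sod2 held 4449, 3848, 3222 and 4837 in wild type against 4347, 4858, 5055 and 4242 in knockout libraries, with wild-type replicate 3 the lowest and overlap of the rest, a log2 difference of 0.19 ± 0.15 (SE). Cat held 5034, 6943, 4315 and 4861 in wild type against 5873, 5961, 5820.2 and 5769 in knockout libraries. Its 4 knockout libraries lay within a narrow range inside that of wild type, and the log2 difference was 0.17 ± 0.15 (SE; 95% interval -0.17 to 0.51). Sod3 had 0 reads in wild-type replicates 1 and 4 and knockout replicate 1, and up to 44.2 normalized counts elsewhere.

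Soluble glutathione S-transferases, marked cytosolic in the plots, formed the largest family, with 18 genes and 17 tested. The log2 difference was positive for 10 and negative for 7, with a median of 0.02, and 0 had an unadjusted p under 0.05. Several lie in clusters of close copies (Gstm genes on chromosome 3, Gstp1 and Gstp2 on chromosome 19, Gstt genes on chromosome 10), so the split of reads among them is uncertain. Gstp1, the pi-class enzyme, held 7221, 5735, 6608 and 10330.2 normalized counts in wild type and 6976, 8059, 7917 and 7414 in the knockout. Gstm5, of the mu class, held 7402, 4541, 5777 and 9291 in wild type against 5026, 6489, 4856 and 5983 in knockout libraries. Both genes had their highest value in wild-type replicate 4 and overlapped, with log2 differences of 0.06 ± 0.17 and -0.23 ± 0.21 (SE).

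Gstk1, a mitochondrial and peroxisomal enzyme, and Gsto2, of the omega class, had the lowest p of this family. Gstk1 held 305, 377, 245 and 402 normalized counts in wild type and 567, 509, 323 and 390.4 in the knockout, a log2 difference of 0.42 ± 0.25 (SE; limma adjusted p = 0.924). The 2 highest libraries were knockout replicates 1 and 2, and the others overlapped. Gsto2 held 0, 49.3, 10.1 and 37.2 in wild type against 90.7, 52.0, 23.5 and 50.6 in knockout libraries. Wild-type replicate 1 had no read of it, and the fitted log2 difference of 2.04 ± 1.10 (SE) ranged from 0.84 without that library to 2.89 with a pseudocount of 0.1, and was 1.15 by edgeR.

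Among the membrane-bound transferases Mgst3, which handles lipid peroxides and leukotrienes, was among the highest members per kb. It held 18992, 11434, 19033 and 29316 normalized counts in wild type and 13020.1, 16179, 12107 and 17604 in the knockout, with a wild-type replicate 4 far above the rest. Mgst1 held 4927, 3579, 1785 and 4110 in wild type against 3279, 2588, 1270.3 and 2943 in knockout libraries. In both genotypes replicate 3 was the lowest library, though replicate numbers pair no libraries. The log2 differences were -0.36 ± 0.25 for Mgst3 and -0.51 ± 0.35 for Mgst1 (SE), neither past 0.05 before adjustment. Mgst2, at low counts, held 16.9, 17.3, 14.0 and 26.7 in wild type against 79.1, 29.4, 20.8 and 23.1 in knockout libraries, with knockout replicate 1 far above the rest and a log2 difference of 0.81 ± 0.56 (SE).

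Nqo1, a quinone reductase, and Hmox1, the inducible heme oxygenase, are textbook targets of Nrf2, and both were low. Nqo1 (ENSMUSG00000003849, mm10, chromosome 8, 107388225 to 107403206, minus strand) held 47.5, 17.3, 40.5 and 25.6 normalized counts in wild type and 114, 46.1, 58.6 and 88.0 in the knockout. Wild-type replicate 1 slightly exceeded knockout replicate 2, and every other wild-type library lay below every knockout library. Wild type averaged 32.7 ± 13.8 and the knockout 76.6 ± 30.4 (SD, n = 4 each). Limma put the log2 difference at 1.22 ± 0.47 (SE), its p at 0.0268 before and 0.895 after adjustment, and the authors' deposited table gives an adjusted p of 0.565. The unadjusted p rose above 0.05 without wild-type replicate 2 or 4 or without knockout replicate 1 or 4. Hmox1 held 141, 173, 60.8 and 90.7 in wild type against 82.2, 118, 149.8 and 149.6 in knockout libraries, with full overlap and a log2 difference of 0.17 ± 0.39 (SE). The constitutive Hmox2 held 3466, 3094, 2779.5 and 4112 in wild type against 3484, 3875, 3534 and 3179.7 in knockout libraries, a log2 difference of 0.08 ± 0.15 (SE). The library ranges of Hmox2 overlapped, and its exons overlap those of Cdip1 by 892 bases on the opposite strand.

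In the plot of single genes Prdx5, Gpx2, Nqo1 and Txnl1 are set beside both subunits of the cystine transporter. The macrophage marker sums averaged 3109 in wild type and 4684 in the knockout, the same direction as Prdx5, Gpx2 and Nqo1. Endothelial sums averaged 144 and 239.8, mesenchyme and fibrocyte sums 20064 and 23064, and supporting cell sums 379710.02 and 350692. The part of these cell types in the differences was not tested. In the pair of libraries with a title date in common, wild-type replicate 2 and knockout replicate 2, the log2 differences of Prdx5, Gpx2, Nqo1 and Txnl1 were 0.49, 0.78, 1.36 and 0.26. In the other 6 libraries they were 0.43, 0.43, 1.17 and 0.17. Without that pair, Prdx5 and Gpx2 no longer had an unadjusted p under 0.05, and Nqo1 did. Over the 60 members the median was 0.28 in the pair, and 0.07 in the 6 remaining libraries.

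**Figure D3:**
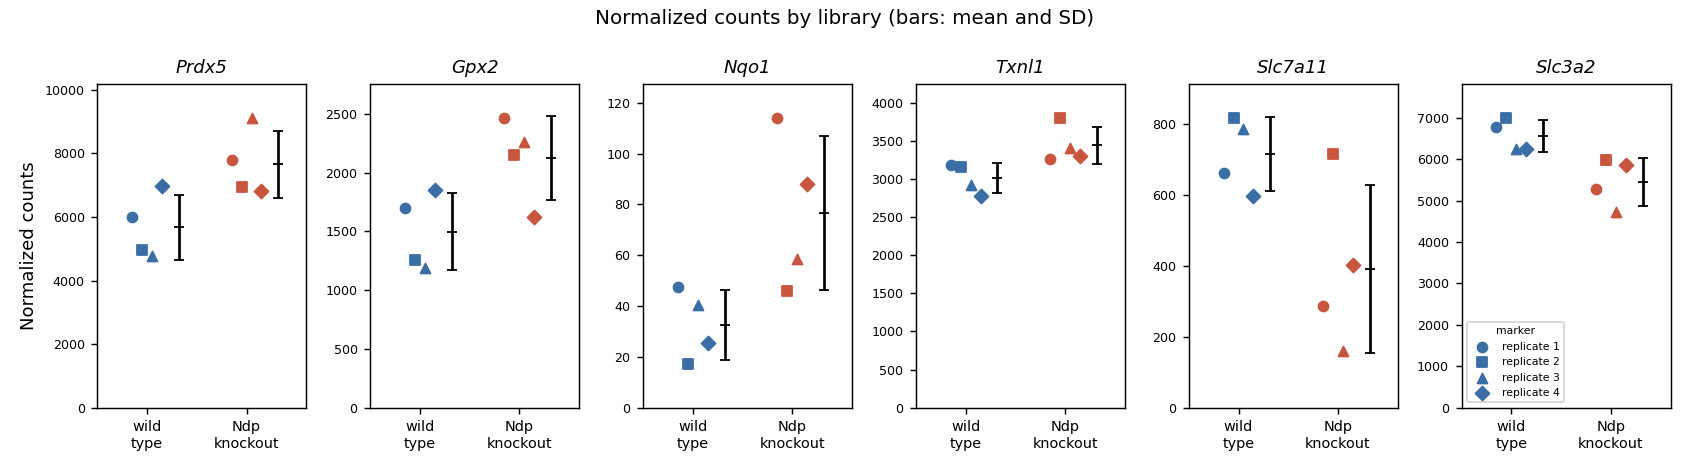
Normalized counts (linear axes from 0) of 6 genes in each library, with marker shape giving the replicate; black bars are the mean and SD of 4 libraries. Txnl1 is higher and Slc3a2 lower in every knockout library, while Prdx5, Gpx2, Nqo1 and Slc7a11 overlap between genotypes.

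Other genes of the pathway were taken from lists that are not part of the rule. The Nrf2 gene Nfe2l2 held 2251, 1333, 1681 and 1953 normalized counts in wild type and 1919, 1897, 1856 and 1782 in the knockout. Keap1, its inhibitor, held 4299, 4629.9, 4288 and 4482 in wild type against 4152, 4709, 4886 and 4829 in knockout libraries. Both overlapped between genotypes, with log2 differences of 0.07 ± 0.17 and 0.07 ± 0.12 (SE). Of 8 Nrf2 regulators limma called 0, 5 were positive and 3 negative, and 0 had an unadjusted p under 0.05. Mafg, a small Maf partner of Nrf2, held 1459, 1194, 1378 and 1267 in wild type and 972, 927, 1160.3 and 1188 in the knockout, every knockout library below every wild-type library, with a limma p of 0.0622 before and 0.903 after adjustment.

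Of 25 tested genes among Nrf2 targets and other redox enzymes, limma called 0, 14 were positive and 11 negative, and 1 had an unadjusted p under 0.05. That gene was Slc7a11, the cystine importer that feeds glutathione synthesis. It held 664, 817, 788 and 596 normalized counts in wild type and 287, 715, 161 and 403 in the knockout. Knockout replicate 2 reached the wild-type range and the other 3 knockout libraries lay below it. The log2 difference was -1.06 ± 0.38 (SE), with a limma p of 0.0185 before and 0.895 after adjustment, and it was -0.19 in the pair of one title date. Its partner subunit Slc3a2, a transporter heavy chain shared with other amino acid carriers, held 6771, 6981, 6240.4 and 6234 in wild type against 5268, 5975, 4722 and 5860.05 in knockout libraries. Every knockout library of Slc3a2, a gene chosen after its values were seen, was below every wild-type library, with a log2 difference of -0.27 ± 0.12 (SE; limma adjusted p = 0.899).

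Tkt, a transketolase of the pentose phosphate pathway, held 8746, 8065, 7174 and 8058 normalized counts in wild type and 7267, 6013, 6014 and 7199.7 in the knockout. Its genotypes overlapped narrowly, with a log2 difference of -0.28 ± 0.13 (SE; limma adjusted p = 0.899).

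Of 15 tested genes of glutathione turnover and glutaredoxins, limma called 0, 8 were positive and 7 negative, and 2 had an unadjusted p under 0.05. Hpgds, a prostaglandin D synthase of the sigma transferase class that is known from mast cells and macrophages, held 17.9, 41.1, 39.0 and 15.1 normalized counts in wild type and 286, 79.4, 63.2 and 109 in the knockout. The genotypes did not overlap, and the limma p was 0.00353 before and 0.895 after adjustment. The macrophage marker sums lay in the same direction, and their part in this difference was not tested. Ggt1, which begins the breakdown of glutathione outside cells, held 5.28, 27.4, 25.7 and 15.1 in wild type against 0, 0, 0 and 14.3 in knockout libraries, with 0 reads in knockout replicates 1 to 3 (limma adjusted p = 0.895).

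Of 12 genes of selenoprotein synthesis and methionine sulfoxide reduction, limma called 0, 7 were positive and 5 negative, and 1 had an unadjusted p under 0.05. It was Sepsecs, which makes selenocysteine on its tRNA, with 801, 712, 710.3 and 686 normalized counts in wild type and 969, 723, 1201 and 1139 in the knockout (limma adjusted p = 0.895). Selenop, the secreted selenium carrier, had 1457 ± 398 and 1934 ± 326 (SD, n = 4 each). Of 10 tested genes of oxidant production limma called 0, 6 were positive and 4 negative, and 0 had an unadjusted p under 0.05. Maoa, a mitochondrial amine oxidase, averaged 493 ± 102 and 424 ± 81.6 (SD, n = 4 each). In these 5 lists 0 to 2 genes each were under 0.05. In the order given the shares were 0%, 4.0%, 13.3%, 8.33% and 0%, of 8 to 25 tested genes per list, beside 5.57% of all genes.

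The wild-type libraries varied more than the knockout libraries. On the log2 scale the SD between libraries was larger in wild type for 51 of 60 members (85.0%), against 70.5% of all tested genes, with median SDs of 0.37 in wild type and 0.19 in the knockout. Over all tested genes the median SDs were 0.44 and 0.28. Wild-type replicate 3 was the lowest of the 8 libraries for 27 members (45.0%, against 15.1% of all genes) and wild-type replicate 4 the highest for 19 (31.7%, against 21.2%).

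In 31 members (51.7%) wild-type replicates 1 and 4 were both above replicates 2 and 3, against 23.0% of all tested genes. These 31 include all 6 peroxiredoxins, 6 of the 7 glutathione peroxidases, Sod1, Sod2, Txn1 and Txn2. In 6 members (Gclc, Gstz1, Sod3, Txndc11, Txndc16 and Txnrd1) replicates 1 and 4 were both below. Median principal transcripts were 1289 bases for the 31 and 3374 for the 6. Over all tested genes the same patterns went with 1610 and 3871 bases.

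Members were short, with a median of 1489 bases against 2722 for all tested genes. Of the 3914 tested genes with transcripts of at most that length, 48.3% had replicates 1 and 4 above replicates 2 and 3, and of the 1187 among these with a mean of at least 1000 normalized counts, 81.2% did. The share of counts from mitochondrially encoded genes was 2.31% and 3.47% in wild-type replicates 1 and 4, 1.15% and 1.41% in replicates 2 and 3, and 1.53% to 1.83% in the knockout. Its part in the pattern was not tested.

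**Figure D4:**
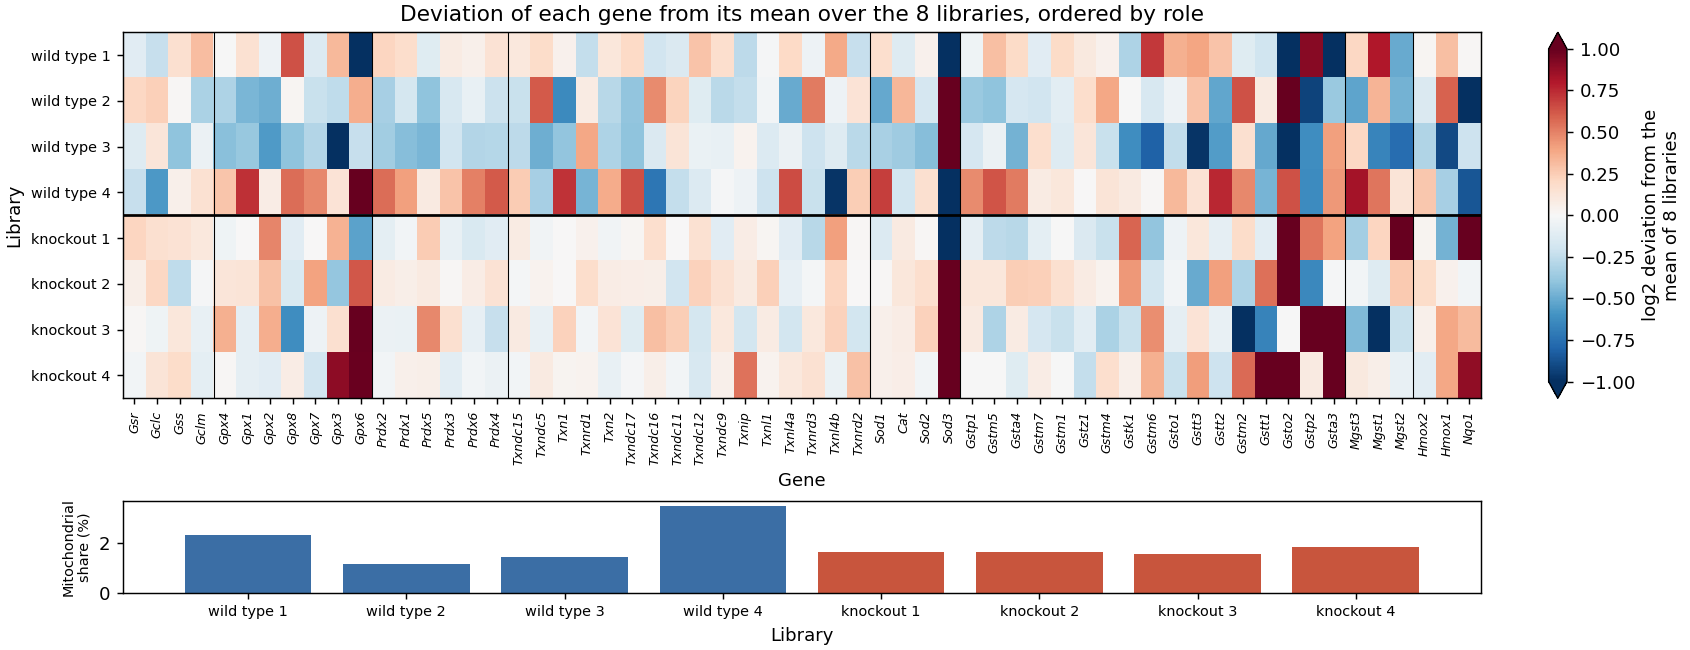
Top, log2 deviation of each of the 60 tested members (columns, by role) from its mean over the 8 libraries (rows), with colour limits at -1 and 1; bottom, share of counts from mitochondrially encoded genes in each library, in percent. Wild-type replicate 4, with a share of 3.47%, is above the mean for most peroxiredoxins and peroxidases and below it for Txnrd1, Gclc and Txndc16, and the knockout rows are paler.

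The comparison of genotypes depended on these libraries. Without wild-type replicates 1 and 4, a choice made after seeing the data, only replicates 2 and 3 stood for wild type. Their mitochondrial shares, 1.15% and 1.41%, both lay below the 1.53% to 1.83% of the knockout libraries. Genotype and this share therefore cannot be told apart in that fit. In it limma still called 0 members, 47 were positive and 13 negative, and the median rose to 0.24. An unadjusted p under 0.05 was then reached by 14 members (23.3%), all higher in the knockout, against 9.81% of all tested genes (6.19% higher). Beside Prdx5, Gpx2 and Nqo1 these were Gpx1, Gpx4, Gstp1, Prdx1, Prdx2, Sod1, Sod2, Txn1, Txn2, Txndc15 and Txndc17. In the same fit 15.6% of the 3914 short genes had an unadjusted p under 0.05, with a median log2 difference of 0.19. Of the 1187 short genes with high counts, which hold 18 of the 60 members, 36.3% did, with a median of 0.26. With all 8 libraries those 1187 genes had a median of -0.02.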

How the data were processed

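RNA of sorted hair cells was measured in 8 libraries made with SMART-Seq v4 and Nextera XT, per the labels' protocols. The authors deposited 1 table of 25343 genes whose signal columns hold gene counts divided by a size factor per library. Per the file headers it also holds the authors' log2 fold change and p-values of a WT against KO comparison. Tools listed in the submitters' processing notes, with no role given, are DESeq2 1.26.0, Salmon 0.14.2 and bcl2fastq 2.20, and the build is mm10. Dividing each column by its smallest value above 0 gave whole numbers (within 1e-06) for 100% of 202744 values, called reads here, 35077950 to 48329827 per library. A floor of 3 reads was worth 2.34 to 3.49 normalized counts and covers counting error only.

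The main test was limma 3.58.1 (R 4.3.3) with an intensity trend, two-sided, on log2(normalized count + 1), over the 18203 genes with at least 10 normalized counts in 4 libraries. On this scale differences of low genes depend on the pseudocount, and for Gsto2, Sod3, Gpx6 and Gsta3, each with a library at 0, limma gave 2.04, 1.13, 1.17 and 1.55 where edgeR gave 1.15, 0.50, 0.61 and 1.13. Groups came from the genotype labels, and replicate numbers follow accession order. Alternatives were edgeR 4.0.16 and DESeq2 1.42.0 on recovered reads (by edgeR 828 of 18203 genes and by DESeq2 1526 of 25078 had an unadjusted p under 0.05), other pseudocounts, minimums and scaling, and libraries left out. The scripts were tested on simulated data. Transcript lengths are those of the principal GENCODE vM21 transcript, and 97.1% of the genes have the deposited start and end there. The members and lists were chosen with earlier results of these data known. Genes named in full are, per role, the 2 highest per kb and the 2 with the smallest limma p, with those that do not overlap or have an unadjusted p under 0.05, Nfe2l2 and Keap1, and up to 2 per other list by p. Other members, Slc3a2 and genes that share exons with a member (Trmt112, Wdr7, Cdip1) were chosen after their values were seen.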

Additional observations from a re-analysis of the deposited data

Results flagged for a closer look

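In 5 of the 120 groups of 4 libraries formed by the 60 tested members, a library stood apart from the other 3 by more than Dixon's limit, where chance gives about 6. Gstp2, a low-count copy beside Gstp1, had 22.2, 5.48, 7.02 and 6.98 normalized counts in wild type, with 22.2 in replicate 1. Mgst2 had 79.1 normalized counts in knockout replicate 1, above 20.8 to 29.4 in the others. Gpx7 reached 523 in wild-type replicate 4 and Txn1 reached 6735 in knockout replicate 3, each above the other 3 libraries of its genotype. Txndc12, an endoplasmic reticulum thioredoxin, had 1573 in wild-type replicate 1.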

How the results depend on the processing

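No alternative called a member. The number of members with an unadjusted p under 0.05 was 2 with a minimum of 5 CPM in 4 libraries, which left 48 members and took out Nqo1, and 3 with each other pseudocount, minimum, scaling or tool. Leaving out 1 library gave 1 to 5 members: 5 without wild-type replicate 2 (8.33%, against 9.37% of all genes) and 1 (1.67%) without knockout replicate 1 (Prdx5) or knockout replicate 3 (Nqo1), against 4.05% and 3.39% of all genes. The members whose genotypes did not overlap numbered 1 to 5 when 1 library was left out, with 2 without wild-type replicate 1 or 3 or knockout replicate 4, 3 without knockout replicate 2 or 3, 4 without wild-type replicate 4 (6.67%, against 5.82% of all genes) and 5 without wild-type replicate 2 (8.33%, against 9.35%). In the other 6 such fits 4.34% to 6.55% of all genes did not overlap. There were 7 (11.7%) without both libraries of the common title date, where 14.8% of all genes did not overlap. Without wild-type replicates 1 and 4, added after seeing the data, 21 of the 60 members did not overlap. This was a larger share than the 19.6% of all genes. In that setting 14 members had an unadjusted p under 0.05. Smaller groups overlap less by construction. Overlap was not computed for the pseudocounts, which leave it as it is, nor for edgeR and DESeq2. The median log2 difference of members was -0.01 without wild-type replicate 3, when 29 were positive and 31 negative, and 0.14 without wild-type replicate 4. Over up to 17 alternatives 15 of the 27 named members kept their sign and 12 did not. The log2 difference was 0.36 to 0.65 for Prdx5, 0.41 to 0.78 for Gpx2 and 0.96 to 1.43 for Nqo1, while Prdx1 and Txndc5 changed sign in 7 alternatives each. With the length of all annotated exons in place of the principal transcript Mgst3 was highest per kb, Prdx2 came next and Sod1 fell from rank 13 to 27 among members. No paired analysis was possible because the labels give no replicate number in both genotypes and a single title date occurs in both. The widest 95% intervals were those of Sod3, Gsto2, Gsta3 and Gpx6, with few counts and libraries at 0, and reached 10.5-fold (Gpx6) to 23.5-fold (Sod3) higher in the knockout. The cause of that spread was not tested.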
